A study of Arabidopsis thaliana with 11 samples.

Results

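Cells of the root cortex, the ground tissue between the epidermis and the endodermis, were profiled after 2 days of salt and without salt in Arabidopsis thaliana seedlings. The comparison uses 6 of the 11 arrays of the series, all those of cells sorted by fluorescence from line J1551, the cortex line: 3 from salt-grown seedlings and 3 from control seedlings. The salt group had 5 days of control medium and 2 days of salt, in which NaCl was raised in steps, 25 mM on the first salt day and 50 mM on the second, and CaCl2 by 0.22 mM and 0.375 mM. The control group had 7 days of control medium, so both groups were 7 days old at harvest, and the added calcium went with the salt. Roots of both groups were digested with cell wall enzymes for 30 minutes and sorted, and each array stands for the seedlings of 1 tank. The other 5 arrays are of pericycle cells sorted from another line, J2731, after the same treatments, 3 with salt and 2 without, and serve here to show where cortex cells differ. Cell type and line cannot be told apart in that comparison. All values are log2 expression values as deposited, and a difference is salt minus control.

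Root cells meet salt first as a lack of available water and then as an excess of sodium ions, and growth slows while protective proteins and transporters can be induced. Cortex cells elongate by loosening their walls, through expansins and xyloglucan-modifying enzymes, while cellulose is laid down along cortical microtubules. Dehydrins and other late embryogenesis abundant proteins are known to accumulate in water-stressed plant tissue. In all, 22746 probe sets were tested. Of these, 13513 are paired with exactly 1 gene and give 13355 genes, 1557 of them with a symbol beyond the locus code. For a gene known by its locus code alone, no role is stated.

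The 3 salt arrays were closely alike, with pairwise correlations of 0.993 to 0.994, and the 3 control arrays reached 0.987 to 0.990. Salt and control arrays correlated at 0.965 to 0.975. Pericycle arrays were more spread, with correlations of 0.917 to 0.966 among salt arrays and 0.947 between the control arrays, and pericycle salt replicate 1 stood apart. The 3' minus 5' difference of the ubiquitin control probes, a sign of RNA degradation or short labelling products, was 2.62, 2.60 and 2.83 in the salt arrays and 2.56, 2.39 and 2.34 in the control arrays, which do not overlap. The GAPDH difference averaged 1.23 ± 0.198 in salt and 1.16 ± 0.084 in control arrays, and the actin difference 2.32 ± 0.222 in salt and 2.26 ± 0.064 in control arrays (SD, n = 3 each). The part of this difference in the results was not tested.

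Markers only partly bore out the cell type label. Of 3 measured cortex markers, 2 lay below the dim limit of 2.68, the 40th percentile of probe set means over the cortex arrays, in both groups. Their list mean was 2.66 to 3.03 in salt and 2.78 to 2.99 in control arrays, and none passed the test. In the pericycle arrays the same list mean was 3.19 to 3.28 with salt and 3.15 to 3.45 without, above every cortex array. The best measured cortex marker, AT1G09750, had 4.01, 5.11 and 4.10 in salt arrays and 4.80, 4.99 and 5.36 in control arrays. The 2 pericycle markers, LBD16 and LBD29, were dim in both groups, with a list mean of 1.75 to 1.91 in salt and 1.90 to 2.06 in control arrays, against 3.99 to 4.35 over the pericycle arrays. None of the 2 endodermis markers and 1 phloem marker passed.

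All 6 measured root hair markers fell with salt, against 7.5% of all genes tested. Root hairs are outgrowths of epidermal cells, outside the sorted type, so these genes mark another cell type. Their list mean was 3.56 to 4.07 in the salt arrays and 5.41 to 5.91 in the control arrays, and the groups did not overlap. Salt and control arrays did not overlap for 31.5% of all genes. The median difference of the 6 was -1.84. In the pericycle arrays their list mean was 2.49 to 4.46 with salt and 4.37 to 5.03 without. AT4G26010 had 6.01, 6.03 and 5.66 in salt arrays and 8.52, 8.40 and 8.16 in control arrays, a 5.5-fold lower level with salt (log2 difference -2.46, SE 0.15, adjusted p = 2.99e-05 by limma with Benjamini-Hochberg adjustment over all probe sets). AT4G08410 fell by 2.10 on the log2 scale, and the expansins EXPA18 and EXPA7, known for their part in root hair growth, fell by 1.85 and 1.26. In the fit of all 11 arrays, which called 3.65% of genes, 2 of the 6 passed, and EXPA7 missed the threshold without control replicate 1 or 3 or salt replicate 1 (highest adjusted p = 0.0759). That fit of all 11 arrays also gave a pericycle fall for AT4G08410, by 1.55 (limma adjusted p = 0.0404). The pericycle difference of AT4G26010 was -3.18 and did not pass (adjusted p = 0.125). In sorted bulk RNA, fewer cells of a type and less RNA per cell cannot be told apart, and the part of the root hair genes in the other falls was not tested.

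Salt changed 4487 probe sets in cortex cells at an adjusted p under 0.05, which is 19.7% of those tested. Of these, 2582 rose (11.4%) and 1905 fell (8.38%), so 57.5% of the calls were rises. Over the 13355 genes, 17.9% were called, 10.4% as rises and 7.5% as falls. Of the 1557 genes with a symbol, 171 rose and 164 fell, so falls were more frequent there than over all genes. Most list members named here have a symbol, while the shares set beside the lists are over all 13355 genes. The falls were the larger changes. At least a 2-fold difference was reached by 532 rising (2.34%) and 791 falling probe sets (3.48%), 4-fold by 20 rising and 204 falling ones, and 8-fold by 3 rising and 44 falling ones. The median rise was 0.74 and the median fall -0.88. Below a difference of 1, by contrast, rises outnumbered falls, with 1783 rises against 963 falls between 0.5 and 1.

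**Figure D1:**
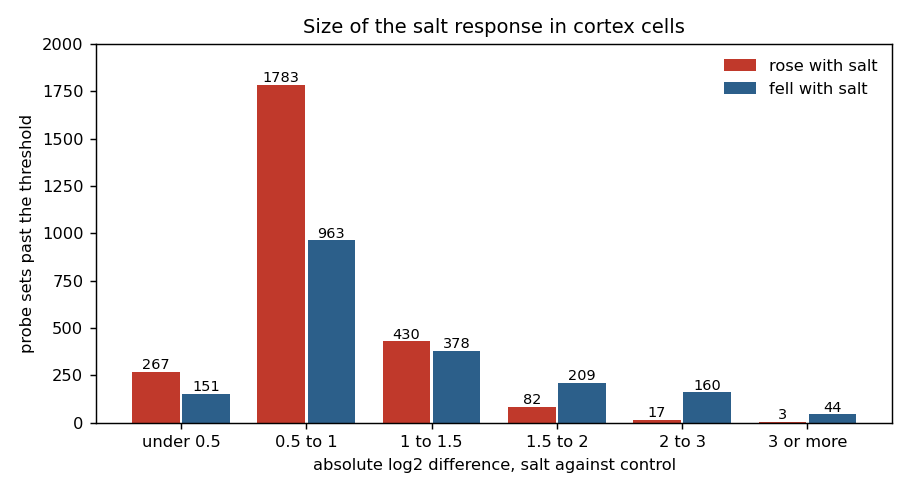
Probe sets past the threshold in cortex cells (vertical axis, count) by absolute log2 difference between salt and control (horizontal axis), with rises in red and falls in blue and the count above each bar. Rises are more frequent up to 1.5 and falls above it, with 3 rises and 44 falls at 3 or more.

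The genes that rose or fell also differed in level. The 532 probe sets that rose at least 2-fold had a median level of 5.86 in salt and 4.59 in control arrays, and 45 of them had a control mean below the dim limit. The 791 that fell at least 2-fold had a median level of 4.25 in salt and 6.09 in control arrays, and 109 had a dim salt mean. For those pairs the difference is measured against a level near the floor of the array. The count of calls depended on the fit: all 11 arrays together gave 946 calls, 326 rises and 620 falls, so that 34.5% were rises. All 946 are among the 4487, in the same direction. Without salt replicate 1 the cortex fit gave 2710 calls, and without salt replicate 3 it gave 2738. A total of 2309 calls passed whichever cortex array was left out, as did 1189 of the 1323 calls of at least 2-fold.

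PAP20, a purple acid phosphatase by name, had the largest rise. Its level was 6.68, 6.90 and 6.80 in salt arrays and 3.10, 3.36 and 4.20 in control arrays, 9.46-fold higher with salt (log2 difference 3.24, SE 0.25, adjusted p = 9.66e-05). All 3 salt arrays lay more than 2 units above the highest control array. AT5G38030 was close behind, with 5.72, 5.49 and 5.72 in salt arrays and 2.54, 1.88 and 2.89 in control arrays (log2 difference 3.21, SE 0.23, adjusted p = 6.55e-05). AT5G66780 had 6.48, 6.93 and 7.25 in salt arrays and 3.65, 4.62 and 4.36 in control arrays, a difference of 2.68. AT5G07330 had 5.27, 5.05 and 5.60 in salt arrays and 3.12, 2.34 and 2.54 in control arrays, a difference of 2.64. AT5G38030 and AT5G07330 had control means below the dim limit, so their differences are measured against a level near the floor. The other 8 of the 12 largest rises ran from 2.37 for AT1G15330 to 1.96 for AT1G69480, with adjusted p between 5.46e-05 and 0.00148. AT1G15330, AT1G69480 and AT5G59080 also had dim control means. AT4G38410 and AT5G01870 stood out by level, with salt means of 7.29 and 7.48 and control means of 5.16 and 5.35. In the fit of all 11 arrays, AT5G66780 missed the threshold (adjusted p = 0.0653).

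**Figure D2:**
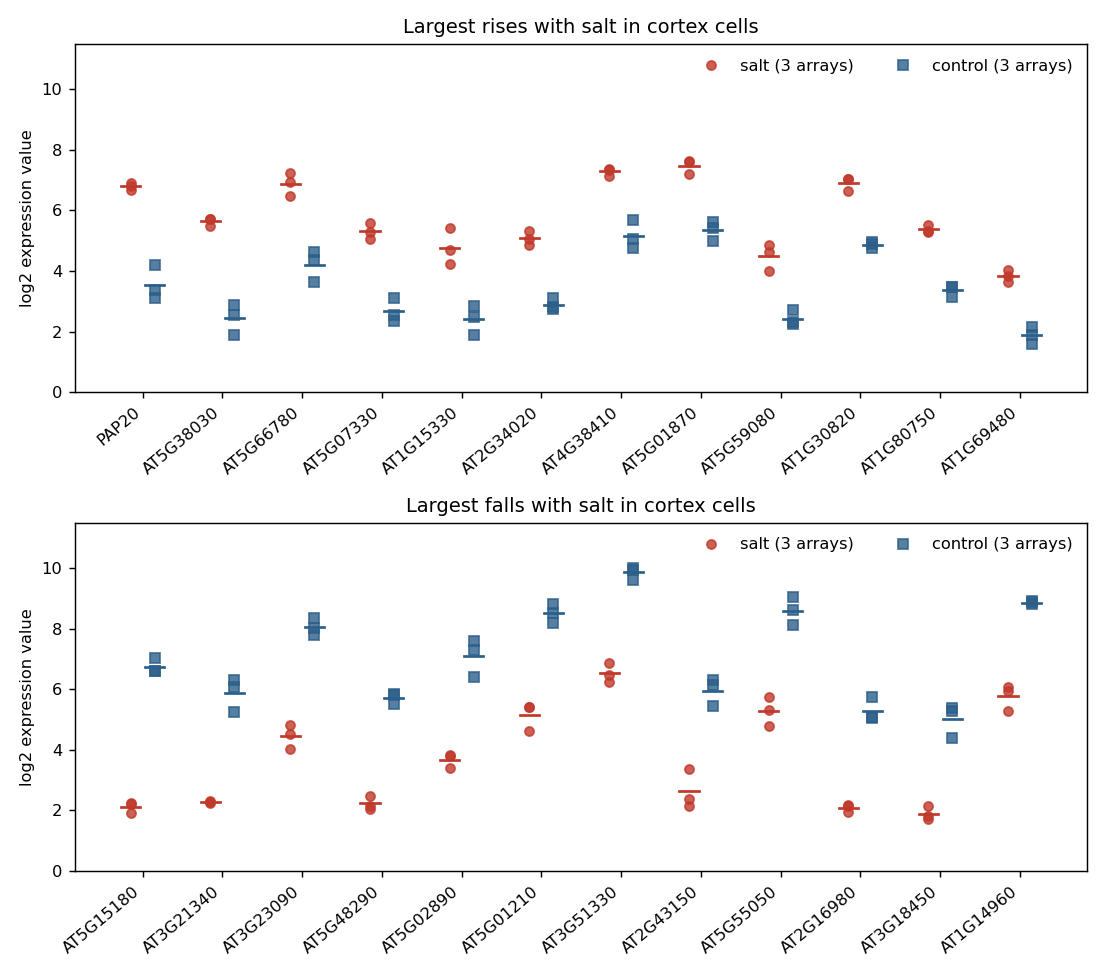
Log2 expression values (vertical axis) of the 12 genes with the largest rise (upper panel) and the 12 with the largest fall (lower panel) among genes past the threshold whose arrays do not overlap. Red circles are the 3 salt arrays, blue squares the 3 control arrays and short lines the group means. AT5G15180 sits near 2 in all salt arrays and between 6.59 and 7.02 in control arrays.

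Among bright genes, JRG21, a jasmonate-regulated gene by name, had 10.85, 10.65 and 10.97 in salt arrays and 8.78, 8.58 and 9.39 in control arrays. It rose 3.75-fold (log2 difference 1.91, SE 0.21, adjusted p = 0.000498). It was the 1 of 4 measured jasmonate genes that rose, or 25%, against 10.4% of all genes rising. AT2G38240 had 7.56, 7.49 and 7.26 in salt arrays and 5.65, 4.71 and 6.11 in control arrays, a difference of 1.95. AT3G22660 was tighter, with 6.91, 6.62 and 6.96 in salt arrays and 5.10, 4.92 and 5.09 in control arrays, a difference of 1.79. AT2G22760 rose by 1.77 with a wide SE of 0.47, and it missed the threshold in the fit of all 11 arrays (adjusted p = 0.124) and without control replicate 2 or 3 or salt replicate 1 or 2 (highest adjusted p = 0.128).

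AT5G15180 had the largest fall among probe sets paired with exactly 1 gene. It measured 1.92, 2.23 and 2.21 in salt arrays and 6.59, 7.02 and 6.61 in control arrays, 24.6-fold lower with salt (log2 difference -4.62, SE 0.16, adjusted p = 3.99e-06). The salt arrays were all below the dim limit. AT3G21340 had 2.27, 2.26 and 2.30 in salt arrays and 6.30, 6.08 and 5.25 in control arrays, a difference of -3.60. AT5G48290 had 2.47, 2.16 and 2.06 in salt arrays and 5.83, 5.83 and 5.52 in control arrays, a difference of -3.50. Both were likewise dim with salt. AT3G23090, whose RefSeq synonym WDL3 belongs to a family of microtubule-binding proteins, stayed measurable, with 4.04, 4.53 and 4.82 in salt arrays and 8.34, 8.01 and 7.80 in control arrays (log2 difference -3.58, SE 0.22, adjusted p = 2.49e-05). AT3G51330 was the brightest of the 12 largest falls, with 6.48, 6.86 and 6.25 in salt arrays and 10.02, 9.95 and 9.62 in control arrays, 10.1-fold lower. The other 7 ran from -3.43 for AT5G02890 to -3.10 for AT1G14960, with adjusted p between 2.48e-05 and 0.000304. Among them, AT2G43150, AT2G16980 and AT3G18450 had dim salt means of 2.63, 2.08 and 1.88. All 12 passed in the fit of all 11 arrays and in each fit without 1 cortex array.

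Wall-loosening genes fell where they changed. Of 28 expansin and XTH genes, none rose and 6 fell, which is 21.4% against 7.5% of all genes, and the list median was -0.24 against 0.01 over all genes. XTH33, of the family that cuts and rejoins xyloglucan, had 3.45, 3.55 and 4.33 in salt arrays and 6.14, 6.55 and 5.69 in control arrays (log2 difference -2.35, SE 0.27, adjusted p = 0.000699). EXPB1, a beta-expansin, had 3.25, 4.10 and 3.18 in salt arrays and 5.88, 5.04 and 5.79 in control arrays, 4.16-fold lower. XTH18 kept a high level, with 7.61, 7.90 and 6.96 in salt arrays and 9.24, 8.79 and 9.14 in control arrays, 2.96-fold lower. EXLA2 fell by 0.62. EXPA18 and EXPA7 complete the 6 and are also root hair markers. EXPA18, EXPA7 and EXLA2 missed the threshold in the fit of all 11 arrays. Of the 28 genes, 15 were dim in both groups.

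Genes of the TBL family, which includes enzymes that acetylate wall polysaccharides, gave 2 of the largest falls among genes with a symbol. Of 22 members none rose and 5 fell, which is 22.7% against 7.5% of all genes, and the median was -0.12. TBL38 had 3.50, 3.28 and 3.95 in salt arrays and 6.82, 6.65 and 5.88 in control arrays (log2 difference -2.87, SE 0.26, adjusted p = 0.000204). TBL41 had 4.27, 4.40 and 4.23 in salt arrays and 7.46, 7.15 and 6.78 in control arrays, 7.12-fold lower. For both genes, no salt array came within 1 unit of a control array. TBL28 fell by 1.67, TBL34, dim in both groups, by 0.82 and TBL21 by 0.69. TBL28 and TBL21 missed the threshold in the fit of all 11 arrays, and TBL21 in every fit without 1 array but that without control replicate 3 (highest adjusted p = 0.144).

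Some genes of polysaccharide synthesis and trimming fell as well. Of 10 genes of cellulose and hemicellulose synthesis, 4 fell and none rose (median -0.42), or 40% falling against 7.5% of all genes. COB, or COBRA, an anchored protein that orients cellulose in elongating root cells, had 7.76, 7.83 and 7.79 in salt arrays and 8.56, 8.60 and 8.70 in control arrays, 1.77-fold lower (SE 0.11, adjusted p = 0.00143). The salt arrays of COB differed from each other by less than 0.1 unit, far less than the gap between groups. CSLA03, CSLC12 and IRX15-L, of families that make mannan, the xyloglucan backbone and xylan, fell by 1.30, 0.95 and 1.00. The salt mean of IRX15-L was dim. CSLA03 missed the threshold in the fit of all 11 arrays (adjusted p = 0.071). Of 15 GH9 endoglucanases, 2 fell, 13.3% against 7.5% of all genes, and 13 did not pass. Among the 1557 genes with a symbol, 164 fell. GH9C1 had 3.13, 4.02 and 3.44 in salt arrays and 5.46, 5.54 and 5.65 in control arrays, 4.05-fold lower, and GH9C2 had 5.82, 6.14 and 5.87 in salt arrays and 7.08, 6.67 and 6.99 in control arrays, 1.96-fold lower.

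PMEPCRF, a pectin methylesterase by name, had 4.07, 4.24 and 4.28 in salt arrays and 7.36, 7.08 and 7.41 in control arrays, 8.5-fold lower (log2 difference -3.09, SE 0.13, adjusted p = 6.73e-06). It had the largest fall among genes with a symbol. HRGP1, a hydroxyproline-rich wall glycoprotein, fell by 1.75, and SKU5, a copper-oxidase-like wall protein that affects the direction of root growth, fell by 0.93.

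Cytoskeletal genes fell in part. Of 43 tubulins and microtubule-associated genes, in a list drawn up after the values were seen, 7 fell and 1 rose (median -0.18). That is 16.3% falling against 7.5% of all genes. SP1L4, of the SPIRAL1 family of microtubule proteins, had 5.02, 5.97 and 5.46 in salt arrays and 7.54, 7.49 and 7.28 in control arrays, 3.87-fold lower (SE 0.22, adjusted p = 0.000615). ATMAP65-6, a microtubule-bundling protein by family, fell by 1.54, IQD19 by 1.44, TRM28 by 1.42, the tubulins TUB1 and TUA6 by 1.14 and 0.66, and TRM31 by 0.52. TRM20 rose by 0.97. In the fit of all 11 arrays, SP1L4, TRM28 and TUB1 passed and the other 5 did not, and TRM31 missed the threshold without salt replicate 1 or 3 (highest adjusted p = 0.0765). WDL3, described with the largest falls, is under its locus code in the files and was not in the list.

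LIM-domain genes, whose products bundle actin filaments, were likewise listed after the values were seen, and 3 of 5 fell (median -1.15), against 7.5% of all genes. WLIM1 had 3.74, 4.20 and 3.61 in salt arrays and 6.29, 6.17 and 6.17 in control arrays, 5.15-fold lower (log2 difference -2.36, SE 0.16, adjusted p = 5.46e-05). WLIM2a had 7.23, 7.45 and 7.13 in salt arrays and 8.79, 8.69 and 8.33 in control arrays, a difference of -1.34. PLIM2a, of a pollen-named subfamily, had 2.90, 3.12 and 3.28 in salt arrays and 4.13, 4.50 and 4.11 in control arrays, a difference of -1.15. Salt and control arrays did not overlap for these 3 genes, as for 31.5% of all genes. WLIM2a missed the threshold in the fit of all 11 arrays (adjusted p = 0.0501).

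**Figure D3:**
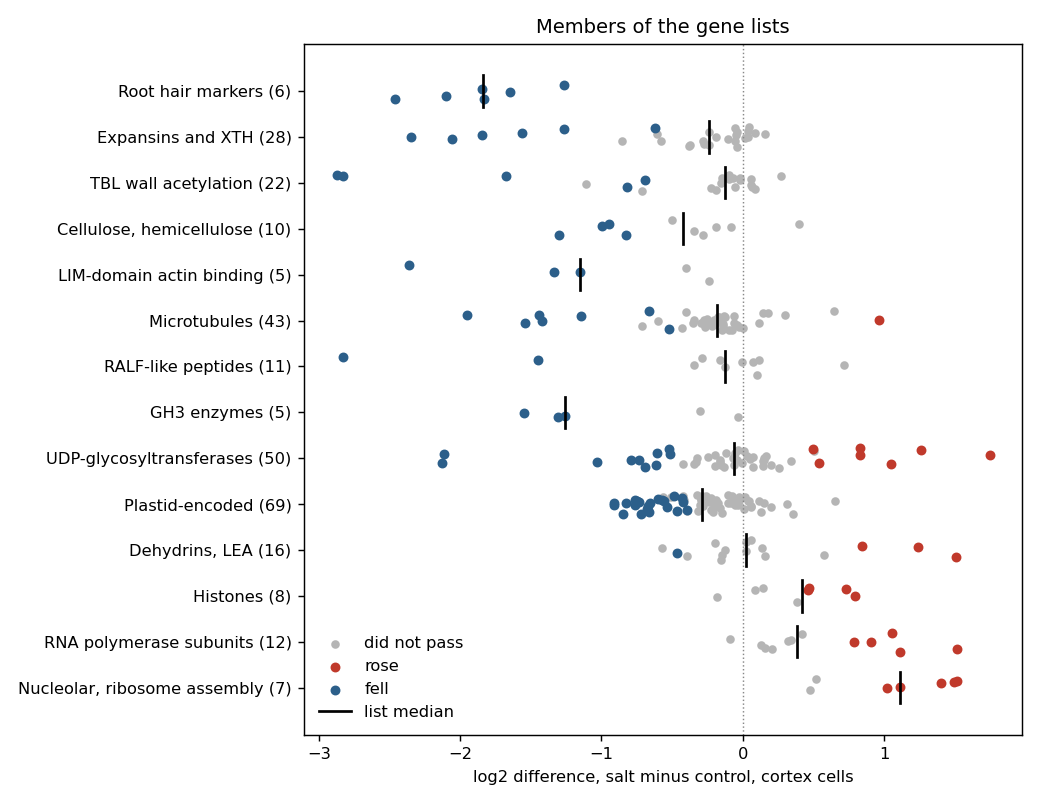
Log2 difference between salt and control in cortex cells (horizontal axis) of the measured genes of 14 lists, with the number of genes in parentheses. Red points rose, blue points fell, grey points did not pass, and black lines are list medians. All 6 root hair markers lie at or below -1.26, and all 7 nucleolar genes lie above 0.4.

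A few peptide signals and receptors of growth fell. Of 31 signalling peptides, 3 fell and 1 rose, and the 9.68% falling is near the 7.5% of all genes. The falls were RALFL27, RALFL22 and the cysteine-rich peptide LCR68 (-1.92), and the rise was CLE27 (0.54). LCR68 missed the threshold without salt replicate 1 or 3 (highest adjusted p = 0.0676). CLE27, dim in control arrays, missed it in the fit of all 11 arrays (adjusted p = 0.497) and without control replicate 1 or 3 or salt replicate 1 or 2 (highest 0.158). The 11 RALF-like peptides are secreted signals, of which several are bound by receptor kinases of the FERONIA family. They were set apart as a list after the values were seen. Of the 11, 2 fell, or 18.2% against 7.5% of all genes, and 9 did not pass. RALFL27 had 2.47, 3.40 and 3.16 in salt arrays and 5.78, 5.60 and 6.13 in control arrays, 7.11-fold lower (SE 0.24, adjusted p = 0.000151). RALFL22 had 6.91, 7.44 and 7.26 in salt arrays and 8.87, 8.43 and 8.65 in control arrays, 2.73-fold lower. Salt and control arrays did not overlap for either gene, as for 31.5% of all genes. Of 4 receptor kinases, 3 fell, against 7.5% of all genes, and 1 of the 4 passed in the fit of all 11 arrays. PSY1R, the receptor of a sulfated growth peptide by name, had 2.36, 2.85 and 3.24 in salt arrays and 5.22, 4.51 and 4.76 in control arrays, 4.04-fold lower. FER, or FERONIA, had 9.02, 9.10 and 9.15 in salt arrays and 9.83, 9.67 and 9.70 in control arrays, 1.56-fold lower. THE1, the wall sensor THESEUS1, fell by 0.96 with an SE of 0.24, and it missed the threshold without salt replicate 1 or 2 (highest adjusted p = 0.097). FER and THE1 missed the threshold in the fit of all 11 arrays (adjusted p = 0.0715 and 0.119).

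GH3 enzymes join auxin, jasmonate or salicylate to amino acids, and some are induced by auxin. In a list drawn up after the values were seen, 3 of 5 fell (median -1.26), against 7.5% of all genes. These 3 are also the only falls in the wider list of 18 auxin genes. There 16.7% fell, none rose, and the median was -0.06. WES1, or GH3.5, had 4.44, 5.14 and 5.04 in salt arrays and 5.78, 6.94 and 6.54 in control arrays, 2.93-fold lower. GH3.17 had 6.82, 6.70 and 6.82 in salt arrays and 8.33, 7.89 and 7.88 in control arrays, 2.39-fold lower (SE 0.15, adjusted p = 0.000757). GH3.3 had 1.98, 2.16 and 1.79 in salt arrays, all below the dim limit, and 3.59, 3.09 and 3.17 in control arrays. WES1 passed in the fit of all 11 arrays, and GH3.3 and GH3.17 did not (adjusted p = 0.305 and 0.184). IAGLU, which glucosylates auxin, was bright, with 10.17, 9.66 and 9.99 in salt arrays and 8.35, 8.71 and 8.79 in control arrays, 2.5-fold higher, and it also missed the threshold in that fit (adjusted p = 0.0955).

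Most listed genes of the nucleolus, where ribosomal RNA is made and ribosomes are assembled, rose. The list was drawn up after the values were seen. Of 7 genes, 5 rose and none fell, against 10.4% of all genes rising, and the median was 1.11. PRH75, a nucleolar RNA helicase, had 6.77, 6.58 and 7.17 in salt arrays and 5.69, 5.28 and 5.05 in control arrays, 2.82-fold higher (SE 0.20, adjusted p = 0.00143). IMP4, of the complex that processes small-subunit ribosomal RNA, had 4.31, 4.37 and 4.25 in salt arrays and 3.05, 3.08 and 2.58 in control arrays, 2.65-fold higher. YAO rose by 1.02, with 5 of the 6 fits without 1 array missing the threshold (highest adjusted p = 0.135, without salt replicate 1). RRP41 and RRP41L, exosome subunits by name, differed by 0.52 and 0.47 and did not pass.

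RNA polymerase subunits overlap with these genes. Of 12 in a list drawn up after the values were seen, 5 rose and none fell (median 0.38), or 41.7% rising against 10.4% of all genes. NRPA2 and NRPA1, the large subunits of RNA polymerase I, the enzyme that transcribes ribosomal RNA, are in both lists. NRPA2 had 4.29, 4.28 and 4.88 in salt arrays and 3.29, 2.73 and 2.86 in control arrays, 2.87-fold higher. NRPA1 had 5.21, 4.56 and 4.48 in salt arrays and 3.73, 3.38 and 3.81 in control arrays, 2.16-fold higher. For both, the lowest salt array lay above the highest control array, while the groups did not overlap for 31.5% of all genes. NRPC2, of RNA polymerase III, rose by 1.06, NRPB9B by 0.91 and NRPB6A by 0.79. In the fit of all 11 arrays, PRH75, IMP4 and NRPC2 passed, and NRPA1, NRPA2, NRPB9B, NRPB6A and YAO did not. NRPB9B missed the threshold without salt replicate 2 or 3 (highest adjusted p = 0.0574). The single cytosolic ribosomal protein gene paired with a symbol, PGY1, rose by 0.79, but missed the threshold in the fit of all 11 arrays (adjusted p = 0.305).

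Histone genes shifted less. Of 8, 4 rose and none fell (median 0.42), against 10.4% of all genes rising, and only 2 or 3 rose in each fit without 1 array. HTB4, a histone H2B, had 8.15, 8.33 and 8.39 in salt arrays and 7.26, 7.63 and 7.59 in control arrays, 1.73-fold higher, and HTB2 rose by 0.73. HTB1 and HON4 rose by 0.46 and 0.47. HON4 missed the threshold in all fits without 1 array but that without control replicate 3 (highest adjusted p = 0.0776), and HTB1 in all 6 (highest 0.14). None of the 4 passed in the fit of all 11 arrays. Cpn60beta2, a plastid chaperonin, rose by 1.43.

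Listed water-deficit genes moved both ways, and the list may miss members known by locus code alone. Of 16 dehydrin, late embryogenesis and water-deficit genes, 3 rose and 1 fell (median 0.02), which is 18.8% rising against 10.4% of all genes. M10, a late embryogenesis protein, had 5.38, 5.38 and 5.32 in salt arrays and 3.70, 3.57 and 4.29 in control arrays, 2.84-fold higher (SE 0.18, adjusted p = 0.000887). DI21, drought-induced 21, had 7.43, 7.30 and 7.41 in salt arrays and 6.04, 6.23 and 6.14 in control arrays, 2.36-fold higher. Both passed in the fit of all 11 arrays and in each fit without 1 cortex array. LEA4-5 rose by 0.85, but missed the threshold without salt replicate 2 or 3 (highest adjusted p = 0.055). COR47, a dehydrin, was among the brightest genes and moved the other way, with 11.66, 11.56 and 11.55 in salt arrays and 12.06, 12.11 and 11.98 in control arrays (log2 difference -0.46, SE 0.11, adjusted p = 0.0207). It missed the threshold without control replicate 2 or any 1 salt array (highest adjusted p = 0.0786), and LEA4-5 and COR47 missed it in the fit of all 11 arrays (adjusted p = 0.156 and 0.0964).

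Ion transport genes changed little. Of 14 potassium, sodium and cation transport genes, none rose and 2 fell, CHX16, a cation/H+ exchanger, by 0.69 and GLR3.5, a glutamate receptor channel, by 0.59. That is 14.3% falling, against 7.5% of all genes and 164 of the 1557 genes with a symbol. In both groups, 9 of the 14 were dim. Neither call held without salt replicate 1 (adjusted p up to 0.127), and CHX16 also missed the threshold without salt replicate 3 (adjusted p = 0.0613). GLR3.5 also missed it without control replicate 1 or 3 or salt replicate 2. None of the 3 listed proton pump genes passed. The vacuolar pump subunit VHA-A3 had 8.38, 8.21 and 8.23 in salt arrays and 9.13, 8.66 and 8.54 in control arrays, with an adjusted p of 0.0693. SWEET17, a vacuolar fructose carrier, had 4.14, 4.04 and 3.82 in salt arrays and 2.73, 3.00 and 3.00 in control arrays, 2.13-fold higher, and it just missed the threshold in the fit of all 11 arrays (adjusted p = 0.0536).

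UDP-glycosyltransferases, which attach sugars to hormones, defence compounds and foreign molecules, moved both ways. Of 50, 7 rose and 10 fell (median -0.06), or 14% and 20%, against 10.4% and 7.5% of all genes. The 10 falls became 6 without salt replicate 2 and 5 without salt replicate 3, and the fit of all 11 arrays had 3 rises and 3 falls. UGT76E1 had 4.27, 4.57 and 4.26 in salt arrays and 2.50, 2.53 and 2.82 in control arrays, 3.36-fold higher (SE 0.15, adjusted p = 0.000139) against a dim control mean of 2.61. UGT71C3 had 5.09 in each of the 3 salt arrays and 3.77, 3.70 and 4.00 in control arrays, 2.4-fold higher, and UGT71C4 and UGT71C5 each rose by 0.83. UGT71C1, of the same subfamily, moved the other way, with 2.45, 2.69 and 2.75 in salt arrays and 4.88, 4.79 and 4.56 in control arrays, 4.32-fold lower at a dim salt mean of 2.63. UGT73D1 had 3.31, 3.22 and 3.12 in salt arrays and 5.18, 5.63 and 5.22 in control arrays, 4.37-fold lower. GT72B1, also known as UGT72B1 and outside the list by its symbol, had 3.73, 3.40 and 3.74 in salt arrays and 6.68, 6.17 and 5.88 in control arrays, 6.15-fold lower. Related genes can share probe sequence, so values within the subfamily may not be fully independent, which was not tested. UGT71C4 missed the threshold in the fit of all 11 arrays (adjusted p = 0.23).

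Other detoxification and redox genes changed singly. Of 24 cytochromes P450, 1 rose and 3 fell: CYP71B6 rose by 1.03, CYP718 fell by 2.08, CYP71B29 by 1.01 and CYP71B27 by 0.60. That is 4.17% rising and 12.5% falling, against 10.4% and 7.5% of all genes. Among the 1557 genes with a symbol, 171 rose and 164 fell. CYP71B27, with a dim salt mean, missed the threshold in the fit of all 11 arrays (adjusted p = 0.199) and without salt replicate 1 or 2 (highest 0.0663). CYP718 was bright, with 6.88, 7.36 and 6.73 in salt arrays and 9.09, 9.34 and 8.78 in control arrays. GSTU28, a tau-class glutathione transferase and the 1 of 13 that changed (7.69%, near the 7.5% of all genes falling), had 7.52, 7.95 and 7.11 in salt arrays and 9.64, 9.71 and 9.33 in control arrays, 4.09-fold lower. AER, an alkenal reductase that removes reactive aldehydes, had 4.94, 4.32 and 4.85 in salt arrays and 2.40, 3.66 and 3.15 in control arrays, 3.1-fold higher. GR, a glutathione reductase, rose by 0.87, but not in the fit of all 11 arrays (adjusted p = 0.437).

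AT3G13610, with the RefSeq synonym F6'H1, the enzyme that starts the synthesis of iron-mobilizing coumarins, had 4.06, 4.15 and 4.40 in salt arrays and 6.36, 6.56 and 6.51 in control arrays. It was 4.84-fold lower with salt (SE 0.13, adjusted p = 2.44e-05). In the same list of 10 iron and coumarin genes, 1 rose and 1 fell, or 10% each, against 10.4% and 7.5% of all genes. The rise was PYE, a regulator of the iron-deficiency response, by 0.82. It missed the threshold in the fit of all 11 arrays (adjusted p = 0.419) and without control replicate 1 or 3 or salt replicate 1 or 3 (highest 0.0894). bHLH115, a transcription factor known in iron-deficiency signalling, had 6.01, 5.75 and 5.49 in salt arrays and 7.42, 7.22 and 7.12 in control arrays, 2.83-fold lower. bHLH34, of the same subgroup, rose by 1.17, with an adjusted p of 0.0731 in the fit of all 11 arrays.

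Among other transcription factors, SPT, or SPATULA, a bHLH factor that limits organ growth, had 4.25, 4.51 and 4.39 in salt arrays and 1.92, 2.62 and 3.15 in control arrays, 3.53-fold higher against a dim control mean of 2.56. GT2, a trihelix factor, had 3.34, 4.03 and 3.28 in salt arrays and 6.21, 6.23 and 5.78 in control arrays, 5.75-fold lower. The TINY gene, of the AP2/ERF family, was dim in all salt arrays, with 1.84, 2.13 and 2.25, and had 4.26, 4.19 and 3.94 in control arrays. WRKY53, known in senescence and defence, fell by 1.53 in the cortex fit, with an adjusted p of 0.253 in the fit of all 11 arrays. Neither of the 2 listed MYB genes, MYBC1 and TRY, passed, nor did the 1 listed NAC gene, NAC014. So few members do not describe these families.

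Plastid-encoded genes made up the list with the most falls. Of 69, 22 fell and none rose, which is 31.9% against 7.5% of all genes, though the median of -0.29 was small. psbF, of photosystem II, had 7.80, 7.73 and 7.62 in salt arrays and 8.63, 8.42 and 8.83 in control arrays, 1.88-fold lower. The list mean was 5.44 to 5.69 in salt arrays and 5.74 to 5.87 in control arrays, against 6.88 to 8.33 over the pericycle arrays, where it was higher. The count of falls depended on the arrays. Without control replicates 1, 2 and 3, in turn, 16, 13 and 11 genes fell, and without salt replicates 1, 2 and 3, 15, 8 and 3. Calls over all probe sets also dropped in these fits, to between 2710 and 4094. psbF passed in each of them (highest adjusted p = 0.0165). None of the 69 genes passed in the fit of all 11 arrays.

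Neighbouring genes fell together in places. Among 5814 pairs of adjacent measured protein-coding genes, both members fell in 72, both rose in 100 and 88 moved in opposite directions. Next to a gene that fell, 14.9% of neighbours fell, against 8.3% of all pair members, and next to a gene that rose, 15.4% rose, against 11.2%. In 18 pairs both fell at least 2-fold, and in 2 both rose. A run of 4 neighbours, AT1G51830, AT1G51840, AT1G51850 and AT1G51860, fell by 2.74, 2.91, 1.90 and 2.13. DI21 and SWEET17, described above, lie side by side and were one of the 2 rising pairs. Adjacent copies of a gene can share probe sequence, and its part in these counts was not tested.

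Cortex and pericycle responses differed in 190 probe sets (0.835% of those tested), 56 with a more positive and 134 with a more negative response in cortex. The difference and the pericycle response were tested in the fit of all 11 arrays, and the count ranged between 53 without cortex salt replicate 3 and 635 without pericycle control replicate 1. The split depended on the arrays too, with 323 more positive and 312 more negative without pericycle control replicate 1, 131 and 146 without pericycle control replicate 2, and 242 and 293 without pericycle salt replicate 3. In several genes the directions were opposite. PMEPCRF fell by 3.09 in cortex, and its pericycle difference was 1.80 (SE 0.35, adjusted p = 0.033), so that the responses differed by -4.89 (SE 0.47, adjusted p = 0.003). For GH9C2 the cortex value was -0.97 and the pericycle value 1.83, both past the threshold, a difference of -2.80. CML42, a calmodulin-like calcium sensor, had a cortex value of -0.78 and a pericycle value of 1.68, again both past the threshold, a difference of -2.46. CML42 missed the threshold in the cortex contrast of the fit of all 11 arrays (adjusted p = 0.173).

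IAA29, a repressor of auxin response, was dim on average in cortex cells, with 2.16, 2.10 and 2.77 in salt arrays and 2.55, 2.87 and 1.53 in control arrays, and its cortex difference of 0.03 did not pass. In pericycle it fell by 4.09 (SE 0.45, adjusted p = 0.006). The large cortex falls of AT3G22240 and AT3G18560 had pericycle differences of 0.21 and 0.33, neither past the threshold, and the differences between responses were -3.31 and -3.36. UGT71C1, by comparison, fell by 2.11 in cortex and had a pericycle difference of 0.16, with a difference between responses of -2.28 (SE 0.25, adjusted p = 0.00419). AT5G15180 fell in both, by 4.62 in cortex and by 1.28 in pericycle, and the cortex fall was larger by 3.34 on the log2 scale (adjusted p = 0.00419).

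**Figure D4:**
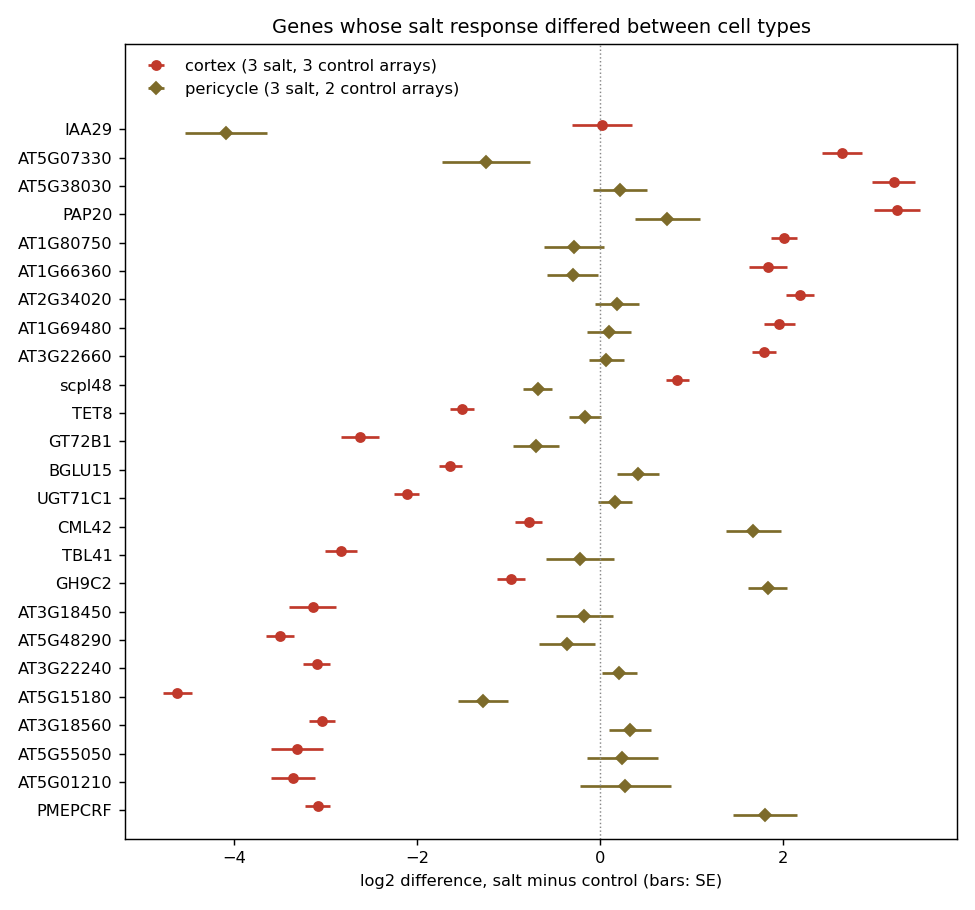
Log2 difference between salt and control (horizontal axis, bars are SE) in cortex (red circles) and pericycle (brown diamonds) for the 25 named genes whose responses differed between the cell types. PMEPCRF, GH9C2 and CML42 lie left of 0 in cortex and right of 0 in pericycle, and IAA29 lies at 0 in cortex and near -4 in pericycle.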

How the data were processed

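RNA of protoplasted, sorted root cells was labelled and hybridised to Affymetrix arrays. The authors deposited log2 values for 22810 probe sets, and RMA and limma are named in the submitters' processing notes without versions or settings. Values were used as deposited, without the 64 control probe sets of the array. Probe sets were named through the platform's gene table and RefSeq TAIR10.1, and 13436 were matched. The cortex comparison was fitted with limma 3.58.1 (R 4.3.3) on the 6 cortex arrays, two-sided, with Benjamini-Hochberg adjustment over 22746 probe sets and a threshold of 0.05. The 6-array fit was preferred because pericycle arrays were more spread, and the fit of all 11 arrays is given as an alternative. The members, lists, fit and tests were chosen with earlier results of these data known, and no list was tested as a set.

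Named genes were the 12 largest rises and 12 largest falls with 1 gene and no overlap between groups, the next 6 each way with both means at or above the dim limit, up to 4 members past the threshold of each list (or 2 as values where none passed), and COR47, PSY1R, PMEPCRF, GH9C2, UGT71C1, IAA29 and CML42. After values were seen, the 15 largest changes each way among genes with a symbol, further members of described lists, WDL3's synonym and the neighbouring genes were added, and wrong name matches were dropped from lists. On simulated data for the cortex comparison, 62% of 100 probe sets changed by 1 log2 unit and 94% of 100 changed by 2 units were recovered. Only these were changed among 22746 simulated probe sets, while 19.7% were called in the data, so recovery in the data can differ. Same-numbered salt and control arrays did not deviate together (residual correlations 0.107, -0.021 and 0.018), so replicate numbers were not taken as pairs. Alternatives were other scalings, a dim filter, array weights, a trended fit, a replicate block and leaving out each array. The number of arrays limits the precision.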

Additional observations from a re-analysis of the deposited data

Results flagged for a closer look

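The named genes here had a salt response in cortex cells that differed from that in pericycle cells at an adjusted p under 0.05 in limma's fit of all 11 arrays (3 salt and 3 control arrays of cortex, 3 salt and 2 control arrays of pericycle). Values are the cortex response minus the pericycle response on the log2 scale. More positive in cortex were IAA29 (4.11), AT5G07330 (3.89), AT5G38030 (2.99), PAP20 (2.51), AT1G80750 (2.29), AT1G66360 (2.13), AT2G34020 (2.00), AT1G69480 (1.85), AT3G22660 (1.72) and scpl48 (1.53). For IAA29 the cortex difference is 0.03 and the pericycle difference -4.09. AT5G07330 had 2.64 in cortex and -1.25 in pericycle, where it did not pass.

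More negative in cortex were PMEPCRF (-4.89), AT5G01210 (-3.63), AT5G55050 (-3.56), AT3G18560 (-3.36), AT5G15180 (-3.34), AT3G22240 (-3.31), AT5G48290 (-3.13), AT3G18450 (-2.97), GH9C2 (-2.80), TBL41 (-2.61), CML42 (-2.46), UGT71C1 (-2.28), BGLU15 (-2.05), GT72B1 (-1.92) and TET8 (-1.34). BGLU15, a beta-glucosidase, had 5.93, 6.09 and 5.80 in cortex salt arrays and 7.56, 7.61 and 7.55 in cortex control arrays. TET8, a tetraspanin, had 7.63, 7.37 and 7.53 in cortex salt arrays and 9.15, 9.05 and 8.86 in cortex control arrays. PAP20, AT1G80750 and TBL41 lay just inside the threshold, with adjusted p of 0.0481, 0.0489 and 0.0495.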

How the results depend on the processing

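No named call changed sign in any alternative, but the balance of rises and falls did turn. The fit of all 11 arrays gave 946 calls (326 rises, 620 falls) against 4487 (2582 rises, 1905 falls), 750 of at least 2-fold against 1323, and 51 list members against 152. Without pericycle salt replicate 1 that fit gave 1701 calls (792 rises, 909 falls, 46.6% rises) and 73 list members. Leaving out 1 cortex array gave 2710 to 4094 calls, 1191 to 1453 of at least 2-fold, and 98 (without salt replicate 3) to 142 list members. The difference between cell types, 190 probe sets, ranged between 53 and 635 when 1 array was left out, and its excess of more negative responses (134 against 56) was gone without pericycle control replicate 1 (312 against 323). Each fit without 1 array has fewer samples. The count of 190 was lower without any 1 cortex array, down to 53, and higher without any 1 pericycle array, up to 635. The cause of these shifts was not tested. The replicate block gave 4400 calls, 1328 of at least 2-fold, 159 list members and 128 probe sets for the difference between cell types, and it ended 2 of the 159 named calls. Quantile normalization, the dim filter, the trended fit and array weights kept all these counts within 1.5 times, as did median centring for the cortex counts, the only ones it was run on. Of the 159 named calls, 72 missed the threshold in the fit of all 11 arrays and 15 to 30 in the fits without 1 cortex array. Signal near the array's floor limits the size of changes in dim genes.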
